A study of Homo sapiens with 60 samples.

Results

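The comparison described here set SW1783 cells exposed for 24 h to a high dose of an ethanol extract of Coptidis Rhizoma against the same cells exposed to a low dose. SW1783 is an established human astrocytoma line, and Coptidis Rhizoma is the rhizome of Coptis, whose main alkaloid is berberine. The members were chosen by their labels: the 2 libraries at 14 µg/mL (replicates 2 and 3) and the 2 libraries at 0.56 µg/mL (replicates 2 and 3), 4 of the 60 libraries of the series, all with set number 11. The series sequenced mRNA libraries for 8 herbal extracts or formulas, each at 3 doses that step by a factor of 5, with a DMSO vehicle beside them. Per the series' design text, extracts whose concentration for 20% growth inhibition lay under 500 µg/mL were given at that concentration and at dilutions of it, so the doses here lie 25-fold apart. Also used for reference were the 2 Coptidis libraries at 2.8 µg/mL, the 6 libraries of Zizyphi Fructus from the same set (20, 100 and 500 µg/mL) and 3 vehicle libraries at 0.1% DMSO per the sample labels (the series' design text gives 2%). All libraries used here carry the same batch label and come from a second round of sequencing per their titles. The vehicle libraries carry no set number, so their values are given only beside the treated ones and set apart by no test. Whether replicates 2 and 3 were grown as separate cultures is not in the labels, and every p-value below is set by library-to-library spread that may be technical.

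Berberine enters mitochondria and is known as an inhibitor of respiratory complex I, and the L-15 medium of this line holds galactose in place of glucose. Cells that face shortage of amino acids, faulty protein folding in the endoplasmic reticulum (ER) or failing mitochondria share a response in which translation initiation factor eIF2 is phosphorylated, bulk translation slows and the transcription factor ATF4 is made. ATF4 and its partners raise genes of amino acid supply, tRNA charging and feedback, while the ER sensors IRE1 and ATF6 raise chaperones and the machinery that degrades misfolded ER proteins.

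The 4 libraries held 21596771 to 24655093 counts. On the trimmed-mean scaling factors, the high-dose libraries stood at 0.8745 and 0.876 and the low-dose libraries at 1.036 and 1.045. Mitochondrially encoded RNA took 7.81% and 8.01% of counts at the high dose and 7.25% and 6.47% at the low dose, and the 10 most abundant genes took 10.75% and 10.72% against 7.805% and 7.256%. The first principal component of the 12 libraries of set 11, with 64.3% of the variance, set both high-dose Coptidis libraries (-97.1 and -94.5) apart from the other 10 (-1.56 to 26.1). Replicates differed by more than sampling noise in each group (chi-square per degree of freedom 2.67 to 5.09), so no library was counted as a copy of another. Of 18 astrocyte and glioma genes listed, 11 passed the filter on low counts. AQP4 and FABP7 had no count in the 4 libraries, and GFAP, S100B, ALDH1L1, SLC1A2 and SOX2 were under the filter, so these defining astrocyte markers were absent or near 0 in the libraries, and the line is called by its label only. Leukocyte genes summed to 177 and 181 CPM at the low dose and 257 and 270.0 CPM at the high dose, nearly all of it CD68, with AIF1, C1QA, CD3E and TYROBP at 0. Neuronal genes summed to 194 and 195 CPM against 175 and 173 CPM, oligodendrocyte genes to 138 and 137 CPM against 107 and 106 CPM, epithelial genes to 201 and 212 CPM against 162 and 165 CPM, and endothelial genes to 2.43 and 3.32 CPM against 2.24 and 2.01 CPM; their part in the results below was not tested.

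The high dose differed from the low dose across most of the transcriptome. Of 16744 genes tested, 11283 passed an adjusted p of 0.05 (67.4%), 5735 higher (34.3%) and 5548 lower (33.1%) at 14 µg/mL. The median log2 fold change was -0.02, and 43.8% of the called genes differed by less than 1.5-fold. The scaling takes most genes as unchanged, so this median and the small differences depend on it. A stricter test, of a difference beyond 1.5-fold, which is what "by more than 1.5-fold" stands for below, was passed by 4342 genes (25.9%), 1949 higher (11.6%) and 2393 lower (14.3%). Counts of list members below are to be read against these shares, which differ by class and level of gene. Of protein-coding genes 38.7% were higher and 33.6% lower, and of lincRNA genes 9.38% and 44%. Among protein-coding genes between 0.413 and 2.32 CPM, 14.7% were higher and 35% lower. Levels are given in CPM, each count set against the scaled total of its library, differences are log2 fold changes of the high over the low dose with their standard error, and "rose" and "fell" are used for genes with an adjusted p under 0.05 in edgeR's quasi-likelihood test.

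**Figure D1:**
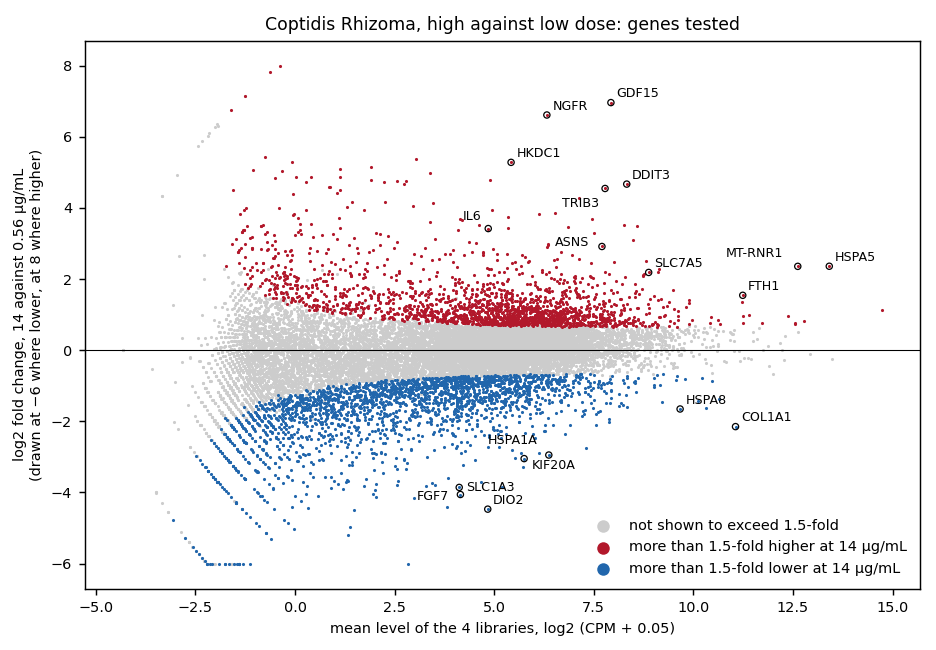
Log2 fold change of 14 over 0.56 µg/mL (vertical axis) against the mean level of the 4 libraries (log2 CPM + 0.05, horizontal axis) for the 16744 genes tested; red and blue points passed the test of a difference beyond 1.5-fold (1949 higher, 2393 lower) and ringed points are named. GDF15 and NGFR stand highest among genes of moderate level, and points at -6 and 8 are genes at or near 0 in one group.

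The largest rise among genes with at least 2 CPM on average was that of GDF15 (chr19:18374731-18389176), a secreted stress cytokine of the TGF-beta family. GDF15 stood at 3.57 and 4.19 CPM in the low-dose libraries and at 483 and 484 CPM in the high-dose libraries, a log2 fold change of 6.96 ± 0.07 (adjusted p = 2.1e-19, edgeR). The 2.8 µg/mL libraries lay between, at 32.3 and 32.9 CPM, and the vehicle libraries at 3.88 to 4.92 CPM, so that of the 3 doses only the low dose overlapped the vehicle. NGFR (chr17:49495293-49515017), the low-affinity neurotrophin receptor, rose from 1.72 and 1.5 to 167 and 149 CPM (6.61 ± 0.1). Other large rises were those of HKDC1, a hexokinase family member (2.15 and 2.13 to 83.7 and 83.5 CPM), the keratin KRT75 (0.313 and 0.434 to 15.5 and 16.3 CPM), KCP (0.666 and 0.592 to 22.3 and 18.1 CPM), RRAGD (0.392 and 0.434 to 11.2 and 11.4 CPM) and IL1A (0.549 and 0.434 to 12.2 and 13.2 CPM). HRK, IRF4, BEX4, NIPAL4 and LAMP3 rose from 2 to 10 counts in each low-dose library, so the size of their change is loosely set. TVP23C-CDRT4, a read-through of overlapping genes whose counts could be split between them, is uncertain.

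Genes of ATF4 and of stress feedback formed the list with the highest median. Of 16 tested, 15 rose and 1 fell, 14 of them by more than 1.5-fold upward, with a median of 2.4 against -0.02 over all genes. ATF4 itself rose from 124 and 116 to 492 and 509 CPM. DDIT3 (chr12:57516588-57521737), which encodes the pro-death factor CHOP, went from 23.4 and 25.2 CPM to 627 and 608 CPM (4.67 ± 0.08). TRIB3, a pseudokinase that restrains AKT and ATF4, went from 17.2 and 18.9 to 418 and 426 CPM (4.55 ± 0.06). For DDIT3 and TRIB3 the high-dose libraries lay far above both low-dose libraries, and the vehicle libraries (23.8 to 24.8 and 18.2 to 19.1 CPM) lay beside the low dose. ATF3, a stress-induced repressor, rose from 2.12 and 1.97 to 58.5 and 55.3 CPM, and NUPR1 from 9.52 and 8.73 to 126 and 133 CPM. PPP1R15A, the phosphatase subunit that removes the phosphate from eIF2, rose from 49.8 and 48.9 to 553 and 574 CPM (3.51 ± 0.05), and SESN2, a leucine sensor upstream of mTORC1, from 18.3 and 19.3 to 138 and 145 CPM. ATF5 was the member that fell, from 29.7 and 29.8 to 16.3 and 18.7 CPM (-0.77 ± 0.1).

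The promoters of these genes were searched for the CARE motif, the composite element bound by ATF4 with C/EBP proteins, written TGATGNAAN and read on both strands in the 300 bases from 250 before to 50 after the RefSeq start (GRCh38.p14; 11686 of 16744 tested genes had an entry). The motif was present in 1.71% of all these promoters, in 6 of 16 promoters of tRNA synthetases, in 3 of 11 of amino acid enzymes, in 3 of 12 of amino acid transporters and in 3 of 14 of the feedback list (0 in a shorter window that starts 150 bases before the start). Among promoters of genes called and at least 2-fold higher it was present in 2.83% (95% exact binomial interval 1.82 to 4.18%), and among those at least 2-fold lower in 2.15%. Stretches of 50 bases before the start are shown for 6 of the genes that rose, 5′ to 3′ on the gene's strand, with the CARE match in capitals (read on the opposite strand in CHAC1, AARS, GOT1 and HERPUD1). A match is a description of the letters and not evidence of binding. The share in a list, here and for the motifs below, counts all its promoters whatever their change. It therefore does not bear on the dose difference.
ATF3 (chr1:212565195-212565244, plus strand): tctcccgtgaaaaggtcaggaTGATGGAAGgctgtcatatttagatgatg
CHAC1 (chr15:40953240-40953289, plus strand): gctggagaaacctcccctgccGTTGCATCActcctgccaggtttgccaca
ASNS (chr7:97872448-97872497, minus strand): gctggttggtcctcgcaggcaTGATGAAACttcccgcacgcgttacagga
AARS (chr16:70289666-70289715, minus strand): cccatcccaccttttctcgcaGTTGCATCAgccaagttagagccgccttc
GOT1 (chr10:99430795-99430844, minus strand): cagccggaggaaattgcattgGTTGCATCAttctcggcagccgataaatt
HERPUD1 (chr16:56931944-56931993, plus strand): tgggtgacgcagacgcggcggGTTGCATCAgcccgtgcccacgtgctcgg

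Genes that supply amino acids rose together. Among 13 transporters tested, 11 rose, none fell and 2 were not called (SLC38A9 and SLC36A1), all 11 by more than 1.5-fold. SLC3A2 and SLC7A5, which pair into the exchanger of large neutral amino acids, rose from 133 and 140.0 to 783 and 753 CPM and from 167 and 172 to 749 and 792 CPM. The cystine transporter gene SLC7A11 rose from 111 and 118 to 273 and 261 CPM (1.22 ± 0.05). Of 16 enzymes of amino acid synthesis and the folate cycle, 14 rose and 2 fell (median 1.69). ASNS (chr7:97852118-97872542), asparagine synthetase, stood at 48.4 and 49.2 CPM at the low and 371 and 365 CPM at the high dose (2.92 ± 0.04). PSAT1 of serine synthesis, MTHFD2 of the mitochondrial folate cycle and PYCR1 of proline synthesis rose by 1.74, 2.21 and 1.78 on the log2 scale. The members that fell were the cytosolic folate enzymes SHMT1, from 31.9 and 33.8 to 12.9 and 13.3 CPM, and MTHFD1, by a small amount (-0.16 ± 0.04, edgeR adjusted p = 0.0735 without high-dose replicate 2), while their mitochondrial relatives SHMT2 (1.29 ± 0.05) and MTHFD1L (1.65 ± 0.05) rose.

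Cytosolic tRNA synthetases were unequal among themselves. Of 20 tested, 15 rose, 1 fell and 4 were not called. GARS (glycyl-tRNA synthetase) rose from 189 and 196 to 957 and 911 CPM, AARS (alanyl) from 199 and 201 to 909 and 918 CPM, and YARS (tyrosyl), SARS (seryl) and CARS (cysteinyl) by 1.87, 1.65 and 1.51 on the log2 scale. In contrast, DARS (aspartyl), RARS (arginyl), FARSA and FARSB (phenylalanyl) did not pass the test, with log2 fold changes from 0.0 to 0.15, and HARS (histidyl) fell from 97.4 and 99.4 to 67.2 and 71.6 CPM (-0.51 ± 0.05).

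ER chaperone genes all rose. HSPA5 (chr9:125234853-125241330), the main Hsp70 chaperone of the ER lumen, stood at 3545 and 3549 CPM in the low-dose libraries (vehicle 3570.4 to 3633 CPM) and at 18429 and 18002 CPM in the high-dose libraries (2.36 ± 0.04). No other nuclear gene gained as many CPM. All 16 folding genes tested rose (34.3% of all genes did), 8 of them by more than 1.5-fold, with a median of 0.61, and together they took 3.18% and 3.13% of counts against 1.52% and 1.53% at the low dose. After HSPA5, the Hsp70 relative HYOU1 (1.11 ± 0.04), the Hsp90 of the ER HSP90B1 (0.95 ± 0.04), the lectin chaperone CALR (0.76 ± 0.04) and the disulfide isomerases PDIA4 (0.73 ± 0.04) and PDIA6 (0.66 ± 0.04) rose by smaller amounts.

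Of 21 genes of the IRE1 branch and of ER-associated degradation, 18 rose, 1 fell and 2 were not called (median 0.94). HERPUD1, a membrane scaffold of the degradation complex, rose from 74.1 and 73.8 to 645 and 631 CPM (3.11 ± 0.04). The sensor ERN1, which encodes IRE1, rose from 17.1 and 17.4 to 99.8 and 94.2 CPM, and its target XBP1 from 109 and 105 to 340.1 and 317 CPM. DNAJB9, a co-chaperone that binds IRE1, rose by 2.76 ± 0.06 and SEL1L, the adaptor of the ubiquitin ligase, by 1.51 ± 0.04. EDEM3, a mannosidase, fell slightly (-0.21 ± 0.06), a call lost without high-dose replicate 3 (edgeR adjusted p = 0.0544). The count table gives whole genes, so the spliced form of XBP1 was not measured.

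The ER stress element ERSE, searched as CCAAT and CCACG with 9 bases of any kind between them, was rare: it was found in 14 of 11686 promoters (0.120%) on either strand, each of which by construction also holds a CCAAT match (36.6% of all promoters hold one). Of those, 12 belonged to genes that rose and 1 to a gene that fell, against 4347 and 4038 of all 11686 promoters. In the folding list, 5 of 15 promoters held the element (2 in the shorter window). Genes that start close together can share a site, so these promoters need not hold separate sites. The UPRE motif TGACGTGG was present in 0.950% of all promoters and in 1.06% of those of genes called and at least 2-fold higher. The stretch of 130 bases before the HSPA5 start and stretches of 50 bases for the other 4 genes that rose at least 2-fold are shown with the ERSE match in capitals (read on the opposite strand in ERO1B). ERO1B is an ER oxidase, FICD modifies HSPA5 and EIF2A is a translation initiation factor.
HSPA5 (chr9:125241344-125241473, minus strand): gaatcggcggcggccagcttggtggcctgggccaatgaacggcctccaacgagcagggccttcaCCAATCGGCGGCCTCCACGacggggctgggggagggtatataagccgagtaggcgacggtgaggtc
XBP1 (chr22:28800588-28800637, minus strand): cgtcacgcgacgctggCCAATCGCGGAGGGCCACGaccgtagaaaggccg
FICD (chr12:108515107-108515156, plus strand): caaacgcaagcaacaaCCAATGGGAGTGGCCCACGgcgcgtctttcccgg
ERO1B (chr1:236282159-236282208, minus strand): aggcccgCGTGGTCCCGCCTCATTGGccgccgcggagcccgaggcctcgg
EIF2A (chr3:150546694-150546743, plus strand): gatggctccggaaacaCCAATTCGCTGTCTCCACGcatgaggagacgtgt

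Cytosolic chaperones mostly went the other way. Of 21 genes of the heat shock list, 13 fell, 4 rose and 4 were not called (median -0.33). HSPA1A and HSPA1B, near-identical inducible Hsp70 genes whose reads may be divided between them, fell from 150.4 and 142 to 17.5 and 20.5 CPM (-2.95 ± 0.07) and from 125 and 126 to 24.1 and 27.8 CPM (-2.27 ± 0.07). HSPA8, the constitutive cytosolic Hsp70, fell from 1243 and 1221 to 398 and 386 CPM (-1.65 ± 0.04), and its co-chaperone DNAJA1 from 236 and 238 to 73.1 and 73.8 CPM. The levels of HSPA5 and HSPA8 thus moved in opposite directions in the same 2 libraries. Rises were those of CRYAB, CCT4, HSP90AB1 and AHSA1, of which only CRYAB passed the 1.5-fold test (1.57 ± 0.27, from 1.06 and 1.3 CPM). The rise of AHSA1 was lost when any of the 4 libraries was left out (edgeR adjusted p 0.0524 to 0.184). Among 12 mitochondrial chaperones and proteases, 9 rose and 2 fell, with HSPA9 and LONP1 higher by 1.36 ± 0.05 and 1.29 ± 0.04 and HSPE1 lower (-1.03 ± 0.07).

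**Figure D2:**
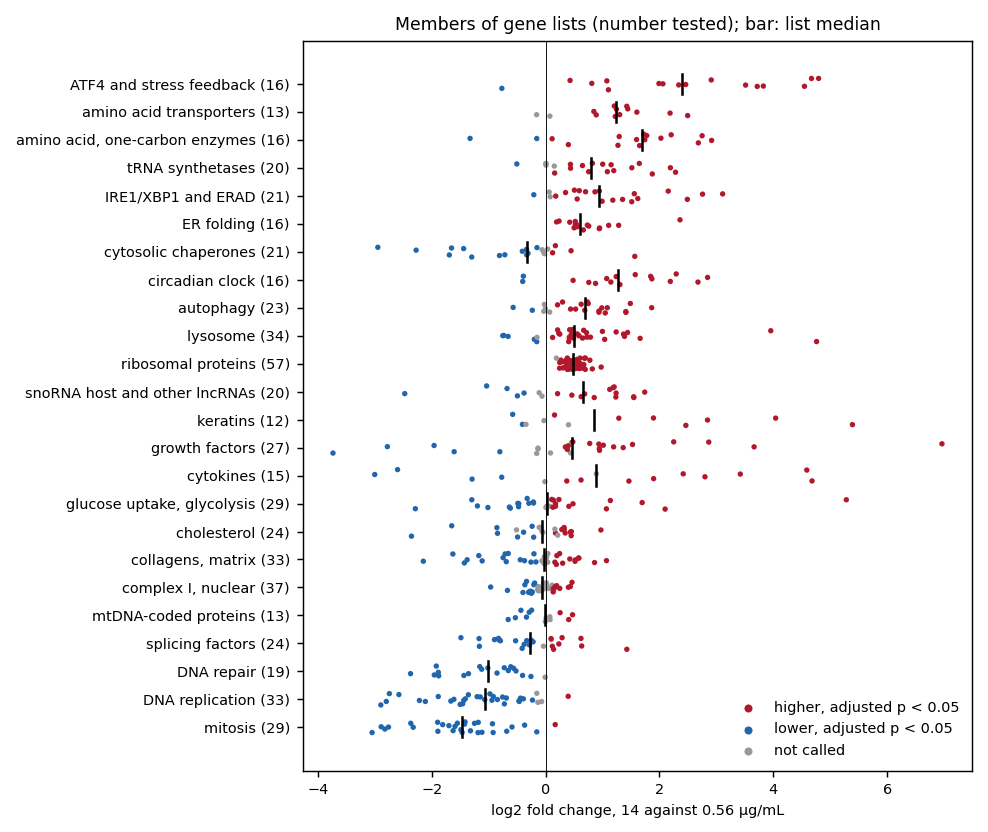
Log2 fold change of 14 over 0.56 µg/mL for each tested member of 24 gene lists (number tested in brackets), with the list median as a bar and colours for the call. The feedback list has its median at 2.4 and the mitosis list at -1.47, and the medians of the cytosolic chaperones (-0.33) and of the ER folding genes (0.61) lie on opposite sides of 0.

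Lysosome and autophagy genes rose by modest amounts. Of 34 lysosomal genes and regulators tested, 28 rose and 5 fell (median 0.49), 13 of the rises by more than 1.5-fold. NPC1, the lysosomal cholesterol exporter, rose from 178 and 185 to 575 and 570.5 CPM (1.66 ± 0.04). The Rag GTPases that hold mTORC1 at the lysosome differed in size of change: RRAGC rose by 1.44 ± 0.06 and RRAGD by 4.76 ± 0.25. FLCN and FNIP1, which act on these GTPases, rose by 1.24 ± 0.05 and 1.37 ± 0.06. The genes that fell included MITF, a transcription factor of lysosomal genes (-0.74 ± 0.07), and the hydrolase GLA (-0.75 ± 0.07). Among 23 autophagy genes, 17 rose and 2 fell (median 0.69). SQSTM1, the cargo receptor p62, rose from 522 and 512 to 1342 and 1402 CPM, MAP1LC3B, the LC3 coat protein, from 85.3 and 80.6 to 236 and 229.5 CPM, and WIPI1 from 24.2 and 25 to 84.7 and 94.1 CPM, while ATG7, which activates LC3, fell by 0.57 on the log2 scale.

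The palindromic CLEAR motif TCACGTGA, bound by TFEB and its relatives, was found in 1.87% of all promoters, in 2.62% of those of genes that rose (95% exact binomial interval 2.17 to 3.14%), in 1.16% of those of genes that fell (0.856 to 1.54%) and in 5 of 22 of the lysosomal list. The genes are not independent and no test was made of these shares. The lysosomal list was made with TFEB and its relatives in mind, so its share may follow in part from how it was chosen. LAMP1, a lysosomal membrane protein, and MCOLN1, a lysosomal calcium channel, are shown with the motif in capitals, although their changes were small (0.65 ± 0.05 and 0.21 ± 0.09).
LAMP1 (chr13:113297189-113297238, plus strand): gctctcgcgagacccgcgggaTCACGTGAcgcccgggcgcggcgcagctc
MCOLN1 (chr19:7522574-7522623, plus strand): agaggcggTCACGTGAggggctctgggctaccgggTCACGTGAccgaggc

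Genes of cell division fell almost without exception. Of 29 mitotic genes, 28 fell and 1 rose (median -1.47, against 33.1% of all genes lower), 24 by more than 1.5-fold, and the list's share of counts went from 0.321% and 0.326% to 0.119% and 0.118%. MKI67, the proliferation marker Ki-67, fell from 277 and 276 to 38 and 43.7 CPM (-2.76 ± 0.06). KIF20A, a kinesin of cytokinesis, fell from 96.1 and 95.9 to 10.9 and 12.3 CPM (-3.05 ± 0.06), the lamin gene LMNB1 from 89.7 and 90 to 12.1 and 12.2 CPM, and the kinase gene AURKA from 90.6 and 90.5 to 17.6 and 18.5 CPM. CDC25B, a phosphatase that activates CDK1, was the exception (0.17 ± 0.06), and its call was lost when any of the 4 libraries was left out (edgeR adjusted p 0.0582 to 0.0749). In bulk RNA, fewer dividing cells and less RNA per dividing cell cannot be told apart.

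Of 33 genes of DNA replication, 29 fell and 1 rose (median -1.07). The cyclin gene CCNE2 fell from 27.5 and 29.3 to 4.54 and 3.91 CPM (-2.74 ± 0.09), UHRF1, which maintains DNA methylation, from 74.6 and 78.8 to 10.4 and 11.6 CPM, and the helicase subunit MCM3 from 146 and 144 to 33.8 and 33.4 CPM. Subunits of the same helicase differed, with MCM3 at -2.11 ± 0.05 and MCM4 at -1.2 ± 0.04. CDC6, which loads the helicase, rose from 82.9 and 83.8 to 110.5 and 109 CPM (0.4 ± 0.04). FAM111B, a protease gene linked to replication, fell from 28.7 and 25.1 to 1.12 and 1.43 CPM (-4.4 ± 0.15). None of 19 DNA repair genes rose and 18 fell, CLSPN (-2.37 ± 0.07) and XRCC2 (-1.96 ± 0.08) among them. Of the inhibitors of cyclin-dependent kinases, CDKN1A (p21) rose from 20 and 21.2 to 48.2 and 50.5 CPM and CDKN2B (p15) from 33.5 and 30.3 to 66.6 and 64.5 CPM, while CDKN2C (p18) fell from 97.9 and 92.6 to 9.12 and 10.5 CPM (-3.28 ± 0.08).

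The cell cycle homology region CHR, searched as TTTGAA on both strands, was found in 9.94% of all promoters, in 16.7% of those of genes called and at least 2-fold lower (95% exact binomial interval 14.8 to 18.8%), in 8.02% of those at least 2-fold higher and in 14 of 25 promoters of the mitotic list, but in 0 of 29 of the replication list. The E2F motif TTTNNCGC showed the opposite split between the lists, with 20 of 29 replication and 2 of 25 mitotic promoters, against 10.3% of all promoters and 10% of those at least 2-fold lower. The interval of the E2F share among genes at least 2-fold lower was 8.5 to 11.7%. The genes are not independent, they are also among all promoters, and motifs and lists were chosen with earlier results known. No test was made of these shares. Short stretches before the start are shown for 3 mitotic genes with CHR in capitals (on the opposite strand in KIF11), followed by 3 replication genes with E2F in capitals (on the opposite strand in PCNA, on both in MCM3 and E2F2).
MKI67 (chr10:128126434-128126483, minus strand): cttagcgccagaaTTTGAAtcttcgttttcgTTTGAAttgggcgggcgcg
KIF11 (chr10:92593080-92593129, plus strand): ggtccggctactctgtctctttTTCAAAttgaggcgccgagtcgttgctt
BUB1B (chr15:40161019-40161068, plus strand): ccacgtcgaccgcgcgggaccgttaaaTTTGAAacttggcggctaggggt
E2F2 (chr1:23531263-23531312, minus strand): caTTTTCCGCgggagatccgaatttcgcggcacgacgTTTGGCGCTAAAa
MCM3 (chr6:52284876-52284925, minus strand): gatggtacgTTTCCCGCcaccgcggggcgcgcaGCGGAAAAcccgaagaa
PCNA (chr20:5126653-5126702, minus strand): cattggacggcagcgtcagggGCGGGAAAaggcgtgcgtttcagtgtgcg

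Death and survival genes moved on both sides. Of 21 apoptosis genes, 14 rose and 4 fell. TNFRSF10B, the death receptor DR5 and a target of CHOP, rose from 52.9 and 53.2 to 295 and 289 CPM (2.46 ± 0.04), and PMAIP1, the BH3-only protein NOXA, from 36.2 and 35.3 to 98.3 and 90.1 CPM. HRK, another BH3-only gene, rose from 0.157 and 0.118 to 4.0 and 4.28 CPM, with 4 and 3 counts in the low-dose libraries. The survival gene BCL2 rose from 7.95 and 6.64 to 27.5 and 27 CPM and XIAP, an inhibitor of caspases, from 97.3 and 102 to 200.2 and 188 CPM. BIRC5 (survivin), which is also a mitotic gene, fell from 112 and 117 to 48.1 and 49.9 CPM, and the caspase gene CASP8 fell (-0.71 ± 0.09). Of 19 genes listed as p53 targets, 12 rose and 2 fell, led by BBC3 (3.72 ± 0.38), SESN2, GADD45A (2.56 ± 0.06) and TNFRSF10B, of which all but GADD45A also stand in the stress feedback list, while MDM2 rose by 0.8 ± 0.06 and TP53I3 fell by 0.64.

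Genes of the circadian clock rose at the high dose. Of 16 tested, 14 rose, 13 of them by more than 1.5-fold, and 2 fell (median 1.27). NR1D1, the repressor REV-ERB alpha, rose from 35.3 and 31.8 to 227 and 202 CPM (2.68 ± 0.1), CIART from 7.91 and 7.5 to 58.9 and 51.9 CPM and PER1 from 26.2 and 26.5 to 123 and 118 CPM. CLOCK, the activator, fell from 1571 and 1587 to 1213 and 1177 CPM (-0.4 ± 0.04). All libraries were taken at 24 h, so phase and level of the rhythm cannot be told apart.

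Ribosomal protein transcripts rose by small amounts. Of 57 ribosomal protein genes, 56 rose and none fell, with log2 fold changes from 0.19 to 0.98 and a median of 0.48, and 5 passed the test of a difference beyond 1.5-fold. The highest, RPL3, went from 522 and 533 to 1025 and 1049 CPM (0.98 ± 0.04). Before scaling, the 57 genes took 2.91% and 2.94% of counts at the low dose and 3.43% and 3.52% at the high dose. The size of these small rises thus depends on the scaling factors. Of 31 genes of translation control, 18 rose and 7 fell, over a wider range (-1.12 to 1.69). EIF1, which guards start codon choice, rose from 334 and 348 to 1082 and 1112 CPM (1.69 ± 0.04), EEF2, the elongation factor, from 1811 and 1783 to 3504 and 3627 CPM, and the elongation factor EEF1A1 from 5001 and 5154 to 8865 and 8932 CPM. EIF4EBP1, an inhibitor of cap binding, rose by 1.57 ± 0.06 while its relative EIF4EBP2 fell by 1.12 on the log2 scale. Of 20 snoRNA host genes and other long non-coding RNAs, 13 rose and 5 fell. GAS5, whose spliced RNA is degraded during translation, rose from 53.7 and 52.3 to 155 and 155 CPM (1.55 ± 0.06) and SNHG15 from 8.7 and 9.2 to 30.9 and 28.9 CPM, whereas NEAT1, the scaffold of paraspeckles, fell from 697 and 680.0 to 356 and 316 CPM and TUG1 from 175 and 178 to 108 and 113 CPM.

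Splicing factors fell more often than they rose (14 against 8 of 24, median -0.27). SRSF1 fell from 254 and 249.9 to 91.4 and 88.3 CPM (-1.49 ± 0.05) and SRSF2 from 192 and 188 to 85.6 and 84 CPM, while CLK1, a kinase that phosphorylates such factors, rose from 23.2 and 23.7 to 64.5 and 61.6 CPM (1.43 ± 0.07). Of 24 chromatin genes, 16 fell and 6 rose. The condensin subunit NCAPG and the remodeller HELLS, both tied to dividing cells, fell (-2.22 ± 0.11 and -1.9 ± 0.08), and DNMT3B rose from 4.08 and 3.75 to 7.37 and 7.09 CPM.

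Secreted factors changed in both directions and by large amounts. Beside GDF15, ADM2, a peptide hormone, rose from 2.78 and 2.53 to 31.1 and 36.3 CPM (3.66 ± 0.15), VEGFA from 297 and 301 to 604 and 603 CPM and FGF2 from 249 and 252 to 483 and 476 CPM. FGF7 fell from 33.7 and 33.2 to 2.1 and 1.9 CPM (-4.06 ± 0.11), TGFB3 from 20.5 and 19.5 to 1.22 and 1.8 CPM (-3.73 ± 0.13) and BMP4 from 11.6 and 10.4 to 1.37 and 1.85 CPM. The groups did not overlap for any of these genes, as was so for 83.3% of all genes tested. Of the 27 genes of the growth factor list, which holds GDF15, ADM2, VEGFA, FGF2, TGFB3 and BMP4 but not FGF7, 16 rose and 5 fell.

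Among 15 cytokine and NF-kB genes tested, 9 rose and 4 fell. IL6 rose from 4.98 and 4.86 to 52.3 and 53 CPM (3.42 ± 0.13), CXCL8 from 3.13 and 3.28 to 11.8 and 12.2 CPM and IL1B from 3.96 and 4.15 to 10.5 and 11.8 CPM. The chemokine CCL2 fell from 18.4 and 16.6 to 2.34 and 2.01 CPM (-3.0 ± 0.17), IL11 from 68.7 and 74 to 29.4 and 28.9 CPM, and NFKBIA, the feedback inhibitor of NF-kB, from 46.6 and 41.4 to 24.2 and 27.4 CPM. Immediate-early genes divided as well (12 of 24 rose and 8 fell). EGR1 fell from 31.6 and 31.7 to 3.37 and 5.18 CPM (-2.9 ± 0.16) and FOS from 2.66 and 2.25 to 0.244 and 0.159 CPM, whereas the phosphatase DUSP5 rose from 12.4 and 11.7 to 53.9 and 49.4 CPM and PHLDA1 from 195 and 192 to 649.8 and 631 CPM. For EGR1 the low-dose libraries stood above the vehicle libraries (16.2 to 18.7 CPM), so its fall was measured from a level higher than the vehicle's.

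Of the fibrillar collagens listed, COL1A1, COL1A2, COL3A1, COL5A1 and COL11A1 fell and COL5A2 was not called. COL1A1 went from 3459.9 and 3491 to 763 and 806 CPM (-2.15 ± 0.06), the largest loss in CPM of any gene tested, and COL1A2 from 1863 and 2003 to 611 and 639 CPM (-1.63 ± 0.05). COL5A1 fell by 1.38, COL3A1 by 1.17 and THBS1, thrombospondin, by 1.43 on the log2 scale. COL6A2, a chain of the beaded-filament collagen, rose from 1143 and 1108 to 2030.1 and 2054 CPM (0.86 ± 0.05), and fibronectin FN1 from 5060.2 and 5250.4 to 7494 and 7293 CPM. Over the 33 genes of the list 15 fell and 12 rose. Of 27 matrix enzymes and inhibitors, 17 rose and 5 fell (median 0.32). Genes of collagen maturation were split: the collagen chaperone SERPINH1 fell from 501 and 485 to 268 and 301 CPM and the cross-linking oxidase LOXL1 from 181 and 164 to 59.6 and 59.9 CPM, while the related oxidase LOX and the hydroxylases P4HA2 and PLOD3 were among the members that rose. The metalloprotease inhibitor TIMP3 and the protease ADAMTS1 rose by 1.4 ± 0.05 and 1.67 ± 0.06.

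Genes of surface, shape and identity moved in both directions, beside 34.3% of all genes tested higher and 33.1% lower. ITGB8, an integrin that activates TGF-beta, fell from 64.6 and 72.3 to 4.2 and 5.45 CPM (-3.83 ± 0.1), and ITGB3 rose from 10.9 and 9.79 to 51.7 and 48.8 CPM (2.28 ± 0.1). The cadherin genes CDH6 and CDH11 fell (-1.67 ± 0.07 and -1.11 ± 0.04) and CDH13 rose by 0.8 ± 0.04. Of 11 astrocyte and glioma genes tested, 7 fell and 4 rose, 3 and 2 of them by more than 1.5-fold, with values from -4.47 to 2.68. The 18 listed genes summed to 8938 and 8710 CPM at the low dose and 11950 and 12050 CPM at the high dose. Among those that fell, DIO2 (chr14:80197527-80387757), the deiodinase that makes active thyroid hormone in astrocytes, went from 55.4 and 53.9 to 2.1 and 2.86 CPM (-4.47 ± 0.1). The glutamate transporter SLC1A3 fell from 31.9 and 33 to 1.8 and 2.7 CPM (-3.86 ± 0.11) and nestin NES from 9.25 and 11.1 to 1.32 and 1.16 CPM. VIM rose from 4542 and 4359.8 to 7577 and 7640.0 CPM, as did the cytoskeletal genes FLNA (0.74 ± 0.04) and ACTG1 (0.95 ± 0.04). Among 12 keratin genes 7 rose, KRT17 from 0.862 and 0.908 to 14.7 and 14.6 CPM and KRT80 from 46.6 and 42.5 to 157 and 174 CPM, and 2 fell, KRT18 from 179 and 192 to 138 and 142 CPM. Of 25 Wnt, Notch and Hedgehog genes, 7 rose and 11 fell. The Hedgehog genes PTCH1 and GLI2 fell (-2.31 ± 0.14 and -1.9 ± 0.14), and the Notch ligand JAG1 and target HEY1 rose by 1.48 ± 0.05 and 1.78 ± 0.09, while NOTCH3 fell and GLI1, HES1 and DLL1 were not called. The neuronal genes SNAP25 and TUBB3 fell (-2.69 ± 0.09 and -1.38 ± 0.06), and SYT1 rose by 1.21 ± 0.06.

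Genes of sugar use moved both ways. The glucose transporter SLC2A1 rose from 162 and 163 to 716 and 673 CPM (2.1 ± 0.05), hexokinase HK2 from 51.4 and 53.1 to 175 and 164 CPM and phosphofructokinase PFKP from 193 and 189.7 to 426 and 415 CPM. LDHA, which makes lactate, fell from 1708 and 1746 to 1132 and 1090.0 CPM (-0.64 ± 0.04), PFKFB4 from 31.7 and 31.6 to 13 and 12.7 CPM and GALK1, the first enzyme of galactose use, from 16.4 and 18.2 to 7.71 and 7.35 CPM. The list as a whole was even, 13 of 29 higher and 13 lower. Lipid genes were mixed too: PLIN2, the coat of lipid droplets, rose from 64.8 and 63.7 to 278 and 271 CPM (2.1 ± 0.05), while the fatty acid elongase ELOVL6 fell from 45.3 and 42.3 to 13.3 and 14.9 CPM (-1.64 ± 0.07). INSIG1, which restrains cholesterol synthesis, rose from 107 and 107 to 217 and 204 CPM. Iron storage genes FTH1 and FTL rose from 1255 and 1212 to 3513 and 3679.7 CPM and from 1381 and 1302 to 3196 and 3616 CPM, with haem oxygenase HMOX1 from 55 and 54.8 to 164 and 161 CPM. Of the glutathione synthesis pair, GCLC rose by 1.77 ± 0.06 and GCLM fell by 0.62. ATP2A3, a calcium pump of the ER, rose from 2.31 and 2.76 to 33.5 and 32.2 CPM (3.69 ± 0.11), and ATP2B4, a pump of the plasma membrane, fell from 273 and 271 to 93.2 and 82 CPM.

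Counts of mitochondrial ribosomal RNAs rose and those of most mitochondrial mRNAs did not. The libraries were made for mRNA, and whether these counts follow the amount of ribosomal RNA was not tested. MT-RNR1 stood at 2124 and 1984 CPM at the low dose and 10081 and 10972 CPM at the high dose (2.36 ± 0.06), and MT-RNR2 at 17918 and 16608 and 37864 and 37327 CPM (1.12 ± 0.06). Both were higher still at 2.8 µg/mL (19992 and 19612 CPM and 90210.0 and 90417 CPM), where they took 10.33% and 10.28% of all counts. The vehicle libraries held 622 to 657 and 7822 to 8467 CPM, so the low dose itself lay above them. Of the 13 protein genes of mitochondrial DNA, 6 fell and 3 rose, none of which passed the test of a difference beyond 1.5-fold: MT-ND1 fell from 5661 and 4397 to 3015 and 3363 CPM (-0.66 ± 0.1) and MT-CO3 rose from 4572 and 4071 to 5447 and 6003 CPM (0.41 ± 0.09). The 2 low-dose libraries stood apart in the share of counts from these 13 genes (5.18% and 4.52%, against 3.62% and 3.78% at the high dose). The calls of MT-CO1 and MT-ND4 were lost without low-dose replicate 2 (edgeR adjusted p = 0.125 and 0.0892), that of MT-ATP6 without low-dose replicate 3 (0.0577), and that of MT-CO1 also without high-dose replicate 3 (0.0537). MT-ND6 lost its call without high-dose replicate 3 (edgeR adjusted p = 0.211), without low-dose replicate 2 (0.0501) and without low-dose replicate 3 (0.127). Of 37 nuclear genes of complex I, 23 were called, 9 higher and 14 lower, with a median of -0.07. Of all protein-coding genes 38.7% were higher and 33.6% lower.

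**Figure D3:**
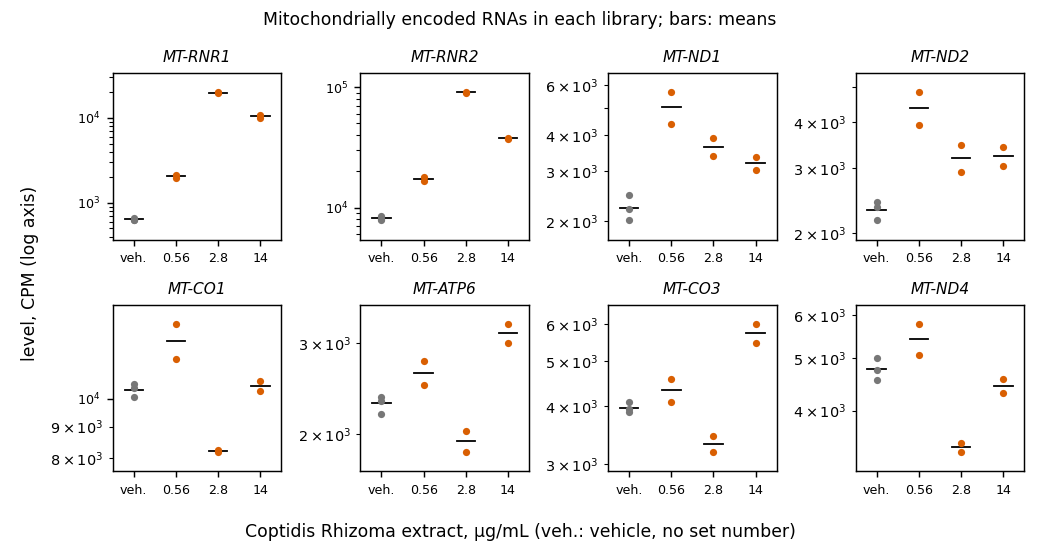
Level (CPM, log axis) of 8 mitochondrially encoded RNAs in each library at 0.56, 2.8 and 14 µg/mL and in vehicle, with group means as bars. MT-RNR1 and MT-RNR2 peak at 2.8 µg/mL, where MT-CO1, MT-ATP6, MT-CO3 and MT-ND4 are lowest.

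Classes of genes differed in direction. Of 704 lincRNA genes tested, 9.38% rose and 44% fell (median log2 fold change -0.63), and of 994 antisense genes 11.2% rose and 32.9% fell (-0.44), against 38.7% and 33.6% of protein-coding genes (0.03). Processed pseudogenes leaned the other way, with 23.6% higher and 12.8% lower of 382. Low level went with part of this: among genes between 0.413 and 2.32 CPM, 43.5% of 352 lincRNA genes and 35% of 1548 protein-coding genes fell, with medians of -0.62 and -0.44. The lincRNA AL645608.2 fell from 6.94 and 7.94 to 0.585 and 0.370 CPM and the antisense gene TMPO-AS1 from 7.8 and 7.35 to 0.341 and 0.793 CPM, while the lincRNA AC079949.2 rose from 1.18 and 1.34 to 10.8 and 10.1 CPM. How strand was handled in counting is not stated in the labels, so reads of an antisense gene and its partner may not be separable. The antisense gene AC110597.3 (chr18:67506589-67514030) had no count in either high-dose library against 8.82 and 19.8 CPM at the low dose, at least 90.1-fold lower on a floor of 3 counts per library. Its low-dose replicates were themselves apart, and the bound was 125-fold without low-dose replicate 2 and 55.6-fold without low-dose replicate 3, alternatives added after the data were seen.

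Values at the medium dose are set beside those of the high dose, with the same low-dose libraries as reference for both, so the pairs of values are not independent. At 2.8 µg/mL 2025 genes differed from the low dose (12.1%), 1166 higher (6.96%) and 859 lower (5.13%). Amino acid enzymes had 13 of 16 higher at this dose (median 0.82), transporters 9 of 13 (0.72) and the stress feedback list 14 of 16 (1.14). Some of these genes were as high at 2.8 as at 14 µg/mL. PSAT1 stood at 204 and 194 CPM at the medium and 207 and 204 CPM at the high dose, against 61.9 and 60.9 CPM at the low dose. CHAC1, a glutathione-degrading enzyme chosen here after its values were seen, went from 5.68 and 5.33 CPM at the low dose to 32.6 and 33.7 CPM at the medium and 26.2 and 29.6 CPM at the high dose. TXNIP, a glucose-responsive arrestin, was as low at the medium dose (2.34 and 1.96 CPM) as at the high dose (2.44 and 2.06 CPM), from 5.45 and 6.24 CPM.

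Other groups were near the low dose at 2.8 µg/mL and moved at 14 µg/mL. Clock genes had a median of 0.1 at the medium dose with 4 of 16 higher. NR1D1 stood at 32.2 and 39.6 CPM, IL6 at 6.23 and 4.61 CPM and CDKN1A at 18.5 and 21 CPM at the medium dose, none of them past the test against the low dose (edgeR adjusted p = 0.68, 0.67 and 0.65). For ribosomal proteins the medium-dose median was 0.09, with 7 of 57 called. Replication genes had already 28 of 33 lower (median -0.35) and mitotic genes 19 of 29 (-0.25). COL1A1 was 2979 and 3143 CPM at the medium dose (-0.18 ± 0.05), called as lower but by far less than at the high dose.

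**Figure D4:**
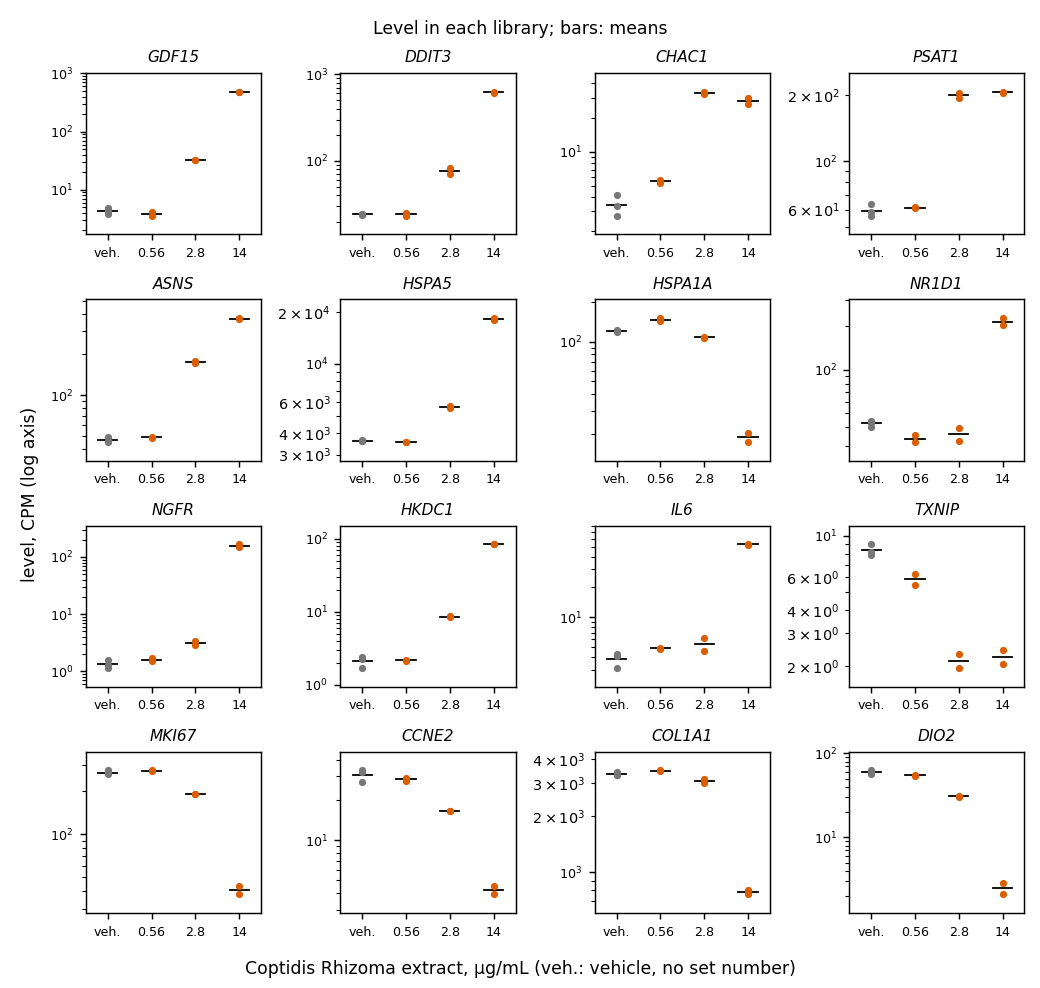
Level (CPM, log axis) of 16 genes in each library for vehicle, 0.56, 2.8 and 14 µg/mL, with group means as bars. PSAT1 and TXNIP are at their high-dose level already at 2.8 µg/mL and CHAC1 is slightly above it, whereas NR1D1 and IL6 overlap the low dose there.

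**Figure D5:**
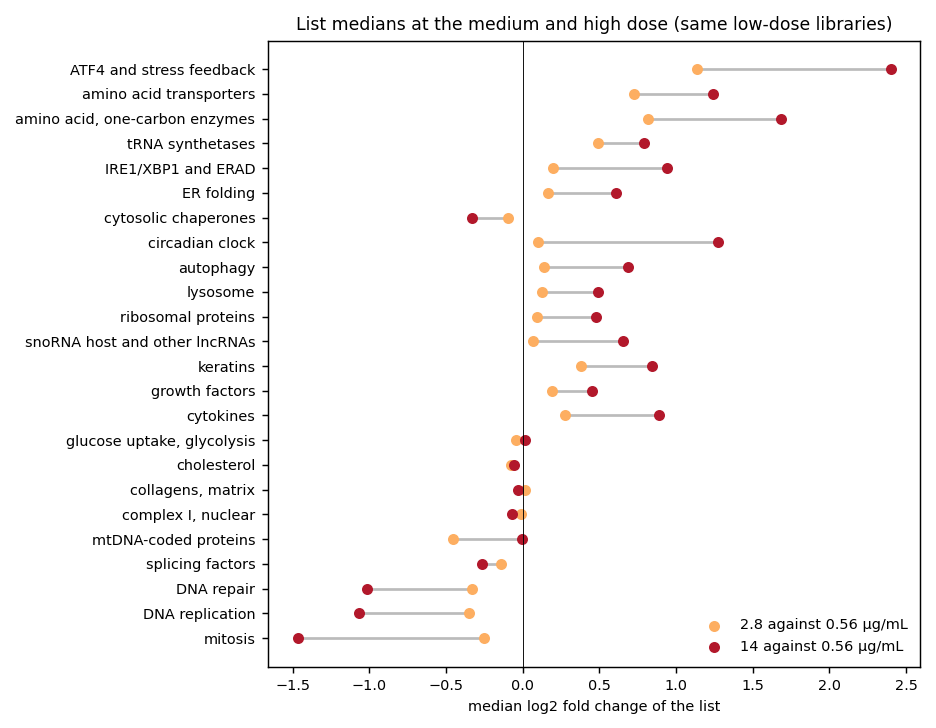
Median log2 fold change of 24 gene lists at 2.8 (orange) and 14 µg/mL (red) over the shared low-dose libraries. The medians of the stress feedback list are 1.14 and 2.4, those of the clock 0.1 and 1.27.

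The same dose step of Zizyphi Fructus (20 to 500 µg/mL, 25-fold), a second extract of set 11, was set beside that of Coptidis. The question was how far the dose differences of the 2 extracts differed. By the dose rule given above, 14 µg/mL of Coptidis is its concentration for 20% growth inhibition, whereas 500 µg/mL is the limit of that rule. The herb and the growth inhibition of its dose therefore cannot be told apart. In Zizyphi 887 genes differed between high and low dose (5.3%). The interaction term was called for 9456 genes (56.5%), 4809 with the Coptidis difference higher (28.7%) and 4647 lower (27.8%). GDF15 fell in Zizyphi (-0.95 ± 0.14) where it rose in Coptidis, a difference of 7.91 ± 0.17. HSPA5 likewise fell in Zizyphi by 0.36 (difference 2.72 ± 0.05), and MKI67 rose slightly (0.2 ± 0.05, difference -2.96 ± 0.08). TXNIP rose in Zizyphi (4.38 ± 0.07) and fell in Coptidis (-1.37 ± 0.14), a difference of -5.75 ± 0.16. DDIT3 was not called in Zizyphi (-0.12 ± 0.1, difference 4.79 ± 0.12), nor was COL1A1 (-0.15 ± 0.05, difference -2.0 ± 0.08). Each difference named here had an adjusted p under 0.05 for the interaction.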

How the data were processed

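Libraries were made from SW1783 RNA with a strand-marking kit and read as 100 bp pairs, per the labels' protocols. The submitters' processing notes name FastQC 0.11.9, Trim Galore 0.6.5, STAR 2.7.3a, RSEM 1.3.3 and the builds hg38 and GRCh38. The authors deposited 1 table of expected counts per gene (60675 genes, 60 libraries), not normalized; 9.18% of its values are not whole, and values were rounded before testing. How strand was set and which gene annotation was used are not given in these sources. Symbols, gene types and coordinates come from GENCODE release 29 (57055 identifiers matched).

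The 12 libraries of set 11 were fitted together with edgeR 4.0.16 (R 4.3.3; quasi-likelihood test, TMM scaling, filterByExpr with a minimum count of 10), with a mean for each of 6 groups and no block. Adjusted p-values follow Benjamini and Hochberg over 16744 genes, and a second call rule tested for more than 1.5-fold (glmTreat). Standard errors were taken as the absolute log2 fold change over the square root of the F statistic. Vehicle CPM come from scaling over set 11 and the vehicle on the same genes. On simulated data with the same 16744 genes, 73.1% of 1.5-fold, 84.5% of 2-fold and 96.4% of 4-fold changes were recovered. Of the calls, 6.83% were false, more than the adjusted p threshold of 0.05 allows. Far fewer genes were changed there than the 67.4% called here, so these rates need not hold for the real comparison. Same-numbered replicates showed no shared deviation over all genes tested (correlations -0.0882 to 0.0893). Counting noise in genes of few counts can hide one, so these values cannot show whether equal numbers stand for a shared culture or run. Alternatives were DESeq2 1.42.0, RLE factors, other filters, other sets of libraries, a replicate block, leaving out each library and, for promoters, a shorter window.

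The compared libraries, gene lists and motifs were chosen with earlier results of these data known. Named genes are the 15 largest changes each way with at least 2 CPM on average and groups that do not overlap, the 8 largest CPM changes each way, up to 6 called members of each list by p and up to 4 that moved against their list, the 4 largest changes each way among genes that are not protein coding, and the 5 largest differences from Zizyphi each way. Genes of the last kind also had to be called between the Coptidis doses, with the same CPM and overlap limits. ATF4, BBC3, CHAC1 and SHMT2, and several genes whose promoters are shown or that are listed as not called, fall outside this rule and were chosen after their values were seen. Promoters are RefSeq's (GRCh38.p14), from 250 bases before to 50 after the start, and stretches printed end before the start. Intervals cover counting error only. Some genes that meet the rule are not reported here.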

Additional observations from a re-analysis of the deposited data

Results flagged for a closer look

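The dose difference of Coptidis (14 against 0.56 µg/mL) differed from that of Zizyphi (500 against 20 µg/mL) for 9456 genes by edgeR's interaction test. The genes named next were drawn only from those called between the Coptidis doses, so a gene that moved in Zizyphi alone could not enter. Among the largest differences of log2 fold changes, the Coptidis difference was the higher for GDF15 (7.91), KRT75 (6.92), NIPAL4 (6.19), NGFR (5.95) and HKDC1 (5.73). The Coptidis difference was the lower for TXNIP (-5.75), SERPINB3 (-5.34), CD248 (-4.61) and METTL7A (-4.495). NIPAL4 had few counts in the low-dose Coptidis libraries. The value of AC110597.3 (-11.36) is a fitted one for a gene with 0 counts in the high-dose Coptidis libraries, and it sets no bound. The doses of the 2 extracts differ, and the values compare these libraries at the doses used.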

How the results depend on the processing

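Of 465 named genes, none changed direction under an alternative. All kept their call with RLE factors and with the replicate block, 13 lost it with DESeq2, 77 in a fit of all 57 libraries of replicated groups, 4 in that fit without 2 divergent libraries of other extracts (Aconiti high replicate 1 and Yijung-tang low replicate 1), and 13 to 17 when 1 library was left out. The 57-library fit has a biological coefficient of variation of 0.139, against 0.0402 in set 11 and 0.0431 without those 2 libraries. It called 7749 genes between high and low dose (3691 higher, 4058 lower) and 273 between medium and low dose (182 higher, 91 lower). For the difference from Zizyphi it called 5099 (2332 higher, 2767 lower). Asking for more than 1.5-fold left 4342 calls (1949 higher, 2393 lower). DESeq2 called 9776 genes between high and low dose (5153 higher, 4623 lower) and 1373 between medium and low dose (768 higher, 605 lower). Leaving out each of the 4 high- and low-dose Coptidis libraries in turn gave 10016 to 10308 calls between high and low dose and 8622 to 8788 for the difference from Zizyphi, with the lone library taken to vary like the others. It moved 7 to 16 of 61 list medians by more than the spread between replicates, and 5 changed sign (the protein genes of mitochondrial DNA, complexes III to V, glycolysis, cholesterol and epithelial markers). Of the medians printed for high against low dose, that of complex I moved by over 1.5 times, from -0.07 to -0.04 without high-dose replicate 2. With the replicate block 11202, 1838 and 9332 genes were called for the 3 comparisons. The shorter promoter window moved 29 of 105 motif shares, and no feedback promoter held CARE in it. With 2 libraries a group, small differences in genes of few counts are the least certain.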

Other observations

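Genes of protein glycosylation, which use sugars made by the hexosamine pathway, mostly rose: 14 of 21 were higher and 4 lower (median 0.32). The paralogs of the first hexosamine enzyme split, with GFPT1 higher (82.9 and 86.1 to 254 and 231 CPM, 1.52 ± 0.05) and GFPT2 lower (111 and 113 to 33.0 and 34.4 CPM, -1.73 ± 0.05). Genes of ER to Golgi export had 17 of 25 higher and 5 lower (median 0.36). Proteasome subunits did not follow: 4 of 31 rose, 12 fell and none passed the test of a difference beyond 1.5-fold, with values from PSMD8 (0.39 ± 0.04) to PSMD12 (-0.67 ± 0.06).

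Among genes that answer glucocorticoids, 5 of 8 rose and none fell, DUSP1 from 38.0 and 38.4 to 97.6 and 93.3 CPM and KLF9 from 62.2 and 63.9 to 129 and 130.3 CPM. Of the antioxidant list, 11 of 23 rose and 5 fell, NQO1 was not called (log2 fold change 0.02) and PRDX1 fell (-0.62 ± 0.05). The metallothionein MT2A rose (0.58 ± 0.08) and MT1E fell (-0.96 ± 0.12).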
